A study of Mus musculus with 8 samples.

Results

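The genes described here are 10 genes of the T cell lineage: the CD3 chains Cd3d, Cd3e and Cd3g, the coreceptors Cd4, Cd8a and Cd8b1, the kinases Lck and Zap70, the transcription factor Runx3 and the protease gene Gzmb. They were chosen by name, through the accession that the array design gives each probe. A probe was matched for 9 of the 10 and all 9 were tested, out of 14137 genes tested and 18749 genes with a matched probe. No probe was matched to Cd8b1, which is not analysed here. The RNA came from No. 4 mammary glands of female mice of the C57/Bl6 strain background, taken on lactation day 1, and each of 8 dams had an Agilent array of its own with a single dye. The groups were 4 wild-type (WT) dams and 4 dams with knockout of Th-POK (KO). The KO mice are described as a knockout line with no tissue-specific driver named, so the loss covers T cells and epithelium alike, and what else the dams of a group shared is not given. The ages of the dams were matched but are not given in the sources used here.

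T cells recognize antigen through a receptor whose signal is passed into the cell by the CD3 chains. The coreceptors CD4 and CD8 bring the kinase Lck to the receptor, Lck phosphorylates the CD3 chains, and the kinase Zap70 is recruited to them. Immature T cells that express both coreceptors become either CD4 helper cells or CD8 cytotoxic cells. Th-POK, encoded by Zbtb7b, directs cells to the CD4 fate, Runx3 directs them to the CD8 fate, and each represses the other. Mice without Th-POK are known to redirect cells that would become CD4 cells to the CD8 lineage. Whether this leaves a mark in the RNA of the whole lactating gland is the question that the comparison of WT and KO addresses. In such bulk tissue, fewer cells of a type and less RNA per cell cannot be told apart.

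Each value below is a log2 signal after quantile normalization, and differences are KO minus WT on that scale with the SE from limma. A gene is called when its p from limma, adjusted by the Benjamini-Hochberg method over all genes tested, is under 0.05. Levels of different probes are not comparable, because probes differ in how well they bind. The share of probes well above background was 66.9% to 75.3% in WT and 66.8% to 71.0% in KO, and 0 spots were saturated. The 4 WT arrays lay on 1 slide and the 4 KO arrays on another, so slide and genotype cannot be told apart. The targeted gene Zbtb7b gave 9.90, 10.42, 10.13 and 10.23 in WT and 1.55, 1.56, 1.65 and 1.598 in KO. It was not well above background on any KO array and was at least 81.5-fold lower in KO (adjusted p = 5.71e-09 by limma). The labels of all 8 arrays therefore matched the targeted gene.

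All 9 genes were well above background on all 8 arrays. On the brightest probe of each they were lower in KO than in WT on average, by 0.21 to 0.63. Of all 14137 genes tested, 7406 were lower on average. A second Cd8a probe differed by 0.094 in the other direction. Several of the 9 genes shared a pattern over the dams, so their directions do not count as independent. Only Cd3e, Cd4 and Runx3 were called, all of them lower, by 1.35-fold to 1.55-fold, and 0 were called higher. Over all genes tested 16.5% were called, 8.96% as lower and 7.53% as higher. The same 3 genes were those for which all KO arrays lay below all WT arrays, a pattern that 12.9% of all genes tested showed (24.1% had no overlap in either direction and 11.1% had all KO arrays above). The median difference of the 9 genes was -0.40, beside -0.02 over all genes tested. At an unadjusted p under 0.05, limma took 4 of the 9 as lower and 0 as higher, and the methods' t-test, which is two-sided, took 3 as lower and 0 as higher. Of all 14137 genes tested, limma took 2777 as lower and 2359 as higher at that threshold, and the methods' t-test took 2563 and 2202. After adjustment the methods' t-test called 0 of the 9 and 1389 of all genes tested. No gene of the 9 differed by 2-fold.

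**Figure D1:**
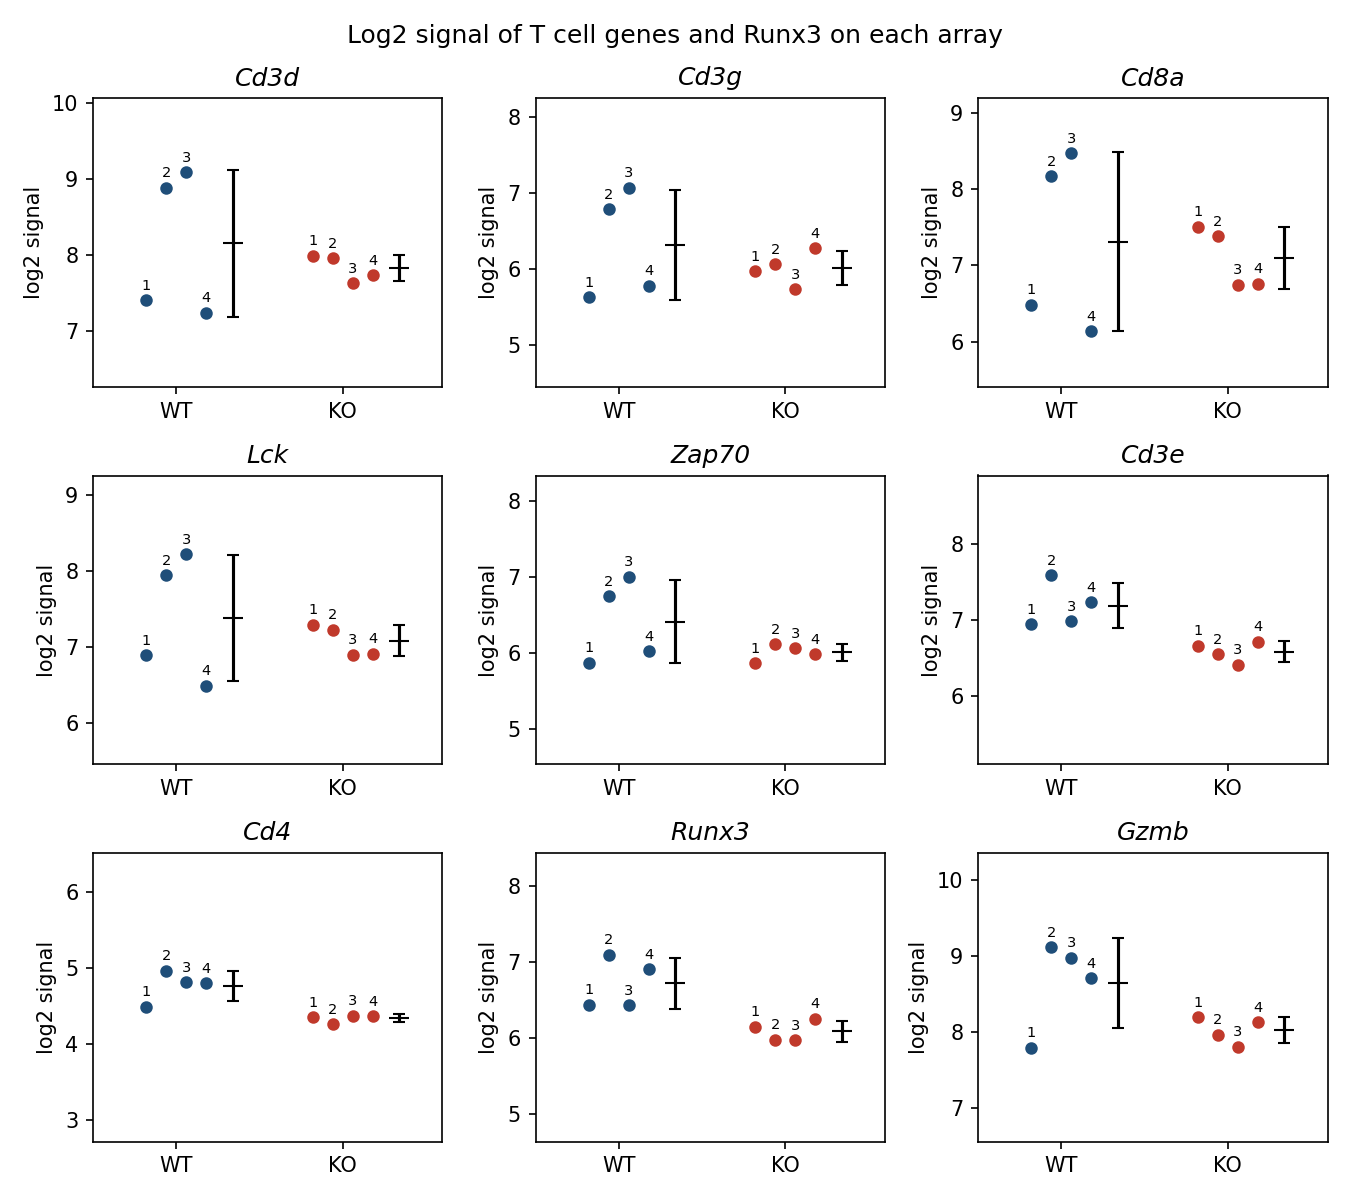
Log2 signal of each of the 9 genes on each array (vertical axis, every panel spanning the same range of log2 units), for WT and KO; points are single dams numbered by replicate, and the bar beside each group is the mean with the SD over 4 dams. WT replicates 2 and 3 stand high for Cd3d, Cd3g, Cd8a, Lck and Zap70, and the KO points lie below all WT points only for Cd3e, Cd4 and Runx3.

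The 3 CD3 chains did not move alike. Cd3e, which encodes the epsilon chain, gave 6.95, 7.59, 6.99 and 7.24 in WT and 6.67, 6.56, 6.42 and 6.72 in KO. Every KO array lay below every WT array, and Cd3e was lower in KO by 1.52-fold (difference -0.60, SE 0.16, n = 4 per group, adjusted p = 0.0369 by limma). Cd3d, which encodes the delta chain, gave 7.40, 8.88, 9.08 and 7.24 in WT and 7.98, 7.95, 7.62 and 7.73 in KO. Cd3g, which encodes the gamma chain, gave 5.63, 6.79, 7.07 and 5.78 in WT and 5.98, 6.06, 5.74 and 6.27 in KO. For both genes WT replicates 2 and 3 were above all KO arrays. WT replicate 1 was below all KO arrays for both, and WT replicate 4 was below all of them for Cd3d. The differences of -0.33 for Cd3d (SE 0.42, adjusted p = 0.603 by limma) and -0.31 for Cd3g (SE 0.32, adjusted p = 0.528 by limma) were within the spread between dams. The 95% interval for Cd3d ran from -1.28 to 0.63, so a change of 2-fold in the downward direction was not distinguished from no change.

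The coreceptor genes also differed from each other. Cd4, the coreceptor of helper cells and also a gene of some macrophages and dendritic cells, gave 4.49, 4.97, 4.82 and 4.80 in WT and 4.35, 4.26, 4.37 and 4.37 in KO. The groups did not overlap, the KO arrays were tightly grouped with an SD of 0.05 against 0.20 in WT, and Cd4 was lower in KO by 1.35-fold (difference -0.43, SE 0.12, adjusted p = 0.0403 by limma). The Cd4 probe had 10 spots per array, which were averaged, while the brightest probe of each other gene had 1 spot. The small SD of Cd4 is therefore not comparable with that of the other genes. The Cd4 signal was dim: the lowest log2 signal that passed as well above background ranged from 2.93 to 4.17 over the arrays. With the replicate number as a block, Cd4 was no longer called (adjusted p = 0.0596 by limma). With the normexp background correction its difference was -0.14 (adjusted p = 0.178 by limma).

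Cd8a, the alpha chain of the coreceptor of cytotoxic cells, had 3 probes. The brightest gave 6.48, 8.17, 8.47 and 6.13 in WT and 7.51, 7.39, 6.75 and 6.76 in KO. The KO arrays lay inside the range of the WT arrays, which spread most among the 9 genes with an SD of 1.18. The difference of -0.21 (SE 0.53, adjusted p = 0.796 by limma) had a 95% interval from -1.42 to 0.99, which holds a fall and a rise of close to 2-fold. Probe A_52_P443334 gave 4.91, 6.82, 6.84 and 4.92 in WT and 6.30, 6.42, 5.60 and 5.53 in KO, with a difference of 0.094 (adjusted p over all probes = 0.910 by limma). The direction thus turned between the probes. Probe A_52_P150547 was well above background on 3 WT and 2 KO arrays, did not enter the test, and gave 3.48, 4.77, 4.92 and 3.80 in WT and 4.08, 3.98, 3.25 and 3.80 in KO. All 3 probes were highest on WT replicates 2 and 3 among the WT arrays. Left out in turn, WT replicate 2 or WT replicate 3 turned the difference of the brightest probe to 0.071 or 0.17.

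The balance of the coreceptors was described within each array as the log2 signal of Cd8a minus that of Cd4. It was 1.99, 3.21, 3.66 and 1.33 in WT and 3.16, 3.13, 2.37 and 2.39 in KO. The groups overlapped, with 2.55 ± 1.07 in WT and 2.76 ± 0.44 in KO (SD, n = 4 each), a difference of 0.22. Both scaling choices gave a positive value (0.31 with scaling by the 75th percentile), but the other Cd8a probes gave 0.53 and -0.03. Against the mean of the CD3 chains on the same array, Cd4 differed by -0.02 and Cd8a by 0.20 between genotypes, and both again overlapped. Without Cd3e in that mean the differences were -0.11 for Cd4 (-0.20 with scaling by the 75th percentile) and 0.10 for Cd8a, also with overlap. No shift from Cd4 to Cd8a beyond the spread between dams was thus measured, and the spread left room for a shift in either direction.

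The kinases followed Cd3d over the WT dams. Lck, which acts first after the receptor is engaged, gave 6.89, 7.94, 8.22 and 6.49 in WT and 7.30, 7.23, 6.90 and 6.91 in KO. Zap70, the kinase that Lck activates, gave 5.87, 6.75, 7.001 and 6.03 in WT and 5.87, 6.12, 6.06 and 5.98 in KO. Both were high on WT replicates 2 and 3, and the other WT arrays lay at or below the KO arrays for Lck and among them for Zap70. The differences were -0.30 for Lck (SE 0.37, adjusted p = 0.583 by limma) and -0.40 for Zap70 (SE 0.25, adjusted p = 0.269 by limma).

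Runx3, which opposes Th-POK in the choice of fate, had 2 probes that did not give the same picture. The brighter, A_51_P494992, gave 6.44, 7.10, 6.44 and 6.91 in WT and 6.15, 5.98, 5.97 and 6.26 in KO. All KO arrays lay below all WT arrays, and Runx3 was lower in KO by 1.55-fold (difference -0.63, SE 0.17, adjusted p = 0.0404 by limma). The other probe, A_52_P666059, gave 5.63, 6.57, 6.53 and 5.96 in WT and 5.90, 5.71, 5.62 and 5.80 in KO. On this probe the groups overlapped, and the difference of -0.41 (SE 0.21) was not called (adjusted p over all probes = 0.2001 by limma). Of all probes tested 7.17% were called lower. The mean of both probes was not called either (difference -0.52, adjusted p = 0.0629 by limma). The probes differed in their pattern over the dams too. The brighter was high on WT replicates 2 and 4 and the other on WT replicates 2 and 3, as Cd3d was.

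Gzmb, which encodes granzyme B, a protease that cytotoxic T cells and natural killer (NK) cells deliver into target cells, gave 7.79, 9.12, 8.98 and 8.71 in WT and 8.19, 7.96, 7.81 and 8.13 in KO. Of the WT arrays 3 lay above all KO arrays and WT replicate 1 lay below all of them. The difference of -0.63 (SE 0.27) had the size of that of Runx3 but was not called (adjusted p = 0.134 by limma). Without WT replicate 1 it was -0.91 and was called (adjusted p = 0.0117 by limma).

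**Figure D2:**
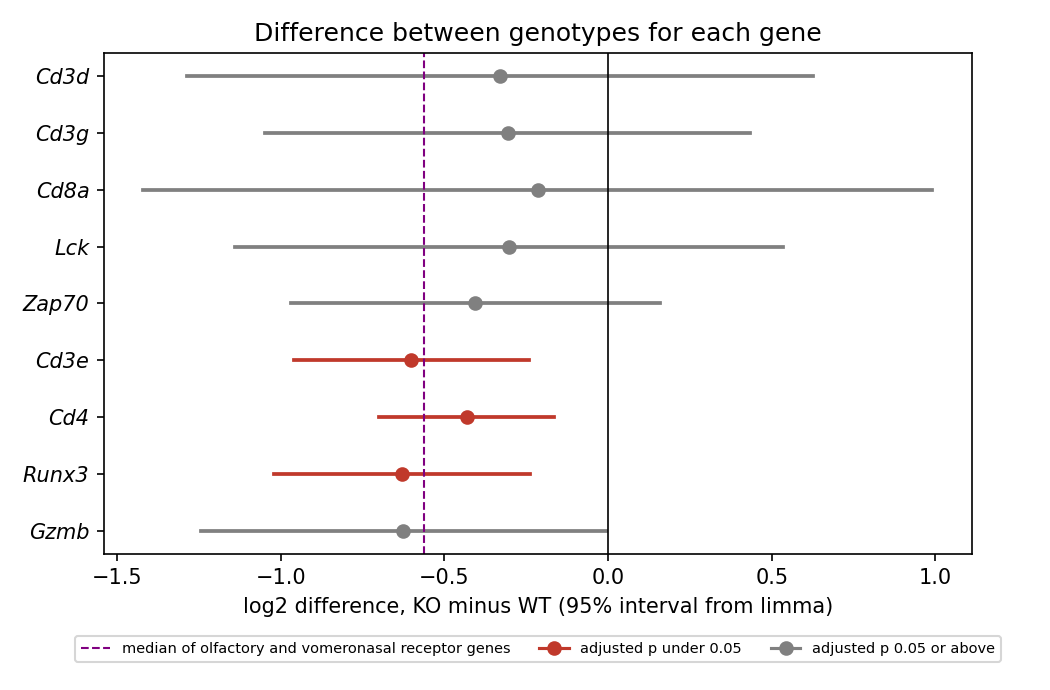
Difference in log2 signal, KO minus WT, for each of the 9 genes (points) with the 95% interval from limma (lines); red marks an adjusted p under 0.05, and the dashed line is the median difference of 207 olfactory and vomeronasal receptor genes. Cd3e, Cd4 and Runx3 lie between -0.43 and -0.63 with short intervals, and Cd8a has the widest interval, from -1.42 to 0.99. Unlike the 9 genes, the 207 receptor genes were not all well above background on all 8 arrays. The 137 receptor probes that were had a median difference of -0.46.

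Runx factors bind a core of the letters TGTGGT, which read on the other strand are ACCACA, and the promoters of the 9 genes with a matched probe were searched for it because Runx3 is both one of the genes and a regulator of T cell genes. RefSeq promoter windows of GRCm38.p6, each holding 250 bases before and 50 bases from the transcript start on, were at hand for 8 of the genes (12 windows; Cd4 and Cd8b1 were without an entry). The core stood in 4 of the 12 windows, 1 each of Runx3, Lck, Zap70 and Gzmb, and in 16.8% of all 32851 windows of the same length. The windows are shown 5′ to 3′ on the strand of the gene, with the core in capitals. That of Runx3 lies at chr4:135120395-135120694 (plus strand), that of Lck at chr4:129573592-129573891 (minus strand), that of Zap70 at chr1:36764265-36764564 (plus strand) and that of Gzmb at chr14:56262285-56262584 (minus strand).
Runx3: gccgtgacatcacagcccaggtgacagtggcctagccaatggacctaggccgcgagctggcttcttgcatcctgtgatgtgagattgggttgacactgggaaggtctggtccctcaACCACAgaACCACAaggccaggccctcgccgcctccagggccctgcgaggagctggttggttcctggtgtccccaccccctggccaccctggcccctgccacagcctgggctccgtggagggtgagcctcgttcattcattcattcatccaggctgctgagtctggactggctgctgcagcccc
Lck: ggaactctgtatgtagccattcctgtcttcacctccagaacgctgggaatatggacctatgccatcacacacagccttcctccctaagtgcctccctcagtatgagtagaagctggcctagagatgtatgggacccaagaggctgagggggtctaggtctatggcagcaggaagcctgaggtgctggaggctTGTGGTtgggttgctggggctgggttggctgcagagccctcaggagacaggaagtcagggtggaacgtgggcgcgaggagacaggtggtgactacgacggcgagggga
Zap70: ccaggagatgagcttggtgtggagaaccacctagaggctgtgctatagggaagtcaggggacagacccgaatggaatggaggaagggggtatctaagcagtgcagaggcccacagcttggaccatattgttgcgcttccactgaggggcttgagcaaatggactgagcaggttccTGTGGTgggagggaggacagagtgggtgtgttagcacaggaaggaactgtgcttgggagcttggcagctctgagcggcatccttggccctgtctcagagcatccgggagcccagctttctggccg
Gzmb: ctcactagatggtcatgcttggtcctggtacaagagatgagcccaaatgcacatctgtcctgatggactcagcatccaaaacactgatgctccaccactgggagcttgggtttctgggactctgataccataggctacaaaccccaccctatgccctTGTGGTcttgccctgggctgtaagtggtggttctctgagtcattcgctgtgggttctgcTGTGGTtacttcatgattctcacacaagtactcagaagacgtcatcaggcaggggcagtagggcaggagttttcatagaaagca
The core began 134 and 126 bases upstream of the start in Runx3, 58 in Lck, 75 in Zap70, and 93 and 34 in Gzmb. These matches are a description of the letters in the windows. Of the 4 genes, Runx3 was called lower on its brighter probe, and Lck, Zap70 and Gzmb were not called. Of the other genes called, Cd3e had a window without the core.

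The spread between dams fell into different patterns. For this description the genotype mean was taken from each array, which leaves the deviation of each dam from its own group, and deviations were correlated over the 8 arrays. Cd3d, Cd3g, Cd8a, Lck and Zap70 rose and fell together: r lay between 0.88 and 0.99 over the 10 pairs of these genes, and rank correlations between 0.81 and 1. Without the 2 arrays farthest from the median of the first gene of a pair, r lay between 0.77 and 0.996. These genes thus shared a pattern over the WT dams, with WT replicates 2 and 3 high and 1 and 4 low. The deviations in KO were smaller, so the WT arrays weighed most in r. On KO replicates 1 to 4 Cd3d deviated by 0.16, 0.13, -0.20 and -0.09, and Cd8a and Lck kept that order. Cd3g (-0.04, 0.05, -0.28 and 0.26) and Zap70 (-0.14, 0.11, 0.05 and -0.03) did not keep it. Both other Cd8a probes (r = 0.92 and 0.97 with Cd3d) and the dimmer Runx3 probe (r = 0.91) had that pattern too. The brighter Runx3 probe (r = 0.06) and Cd3e (r = 0.28) did not have it over all 8 arrays, and Cd4 (r = 0.58) and Gzmb (r = 0.71) lay between. These low values rested on WT replicates 3 and 4, the arrays farthest from the median for Cd3d: without them r with Cd3d was 0.86 for Runx3, 0.90 for Cd3e and 0.87 for Cd4.

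**Figure D3:**
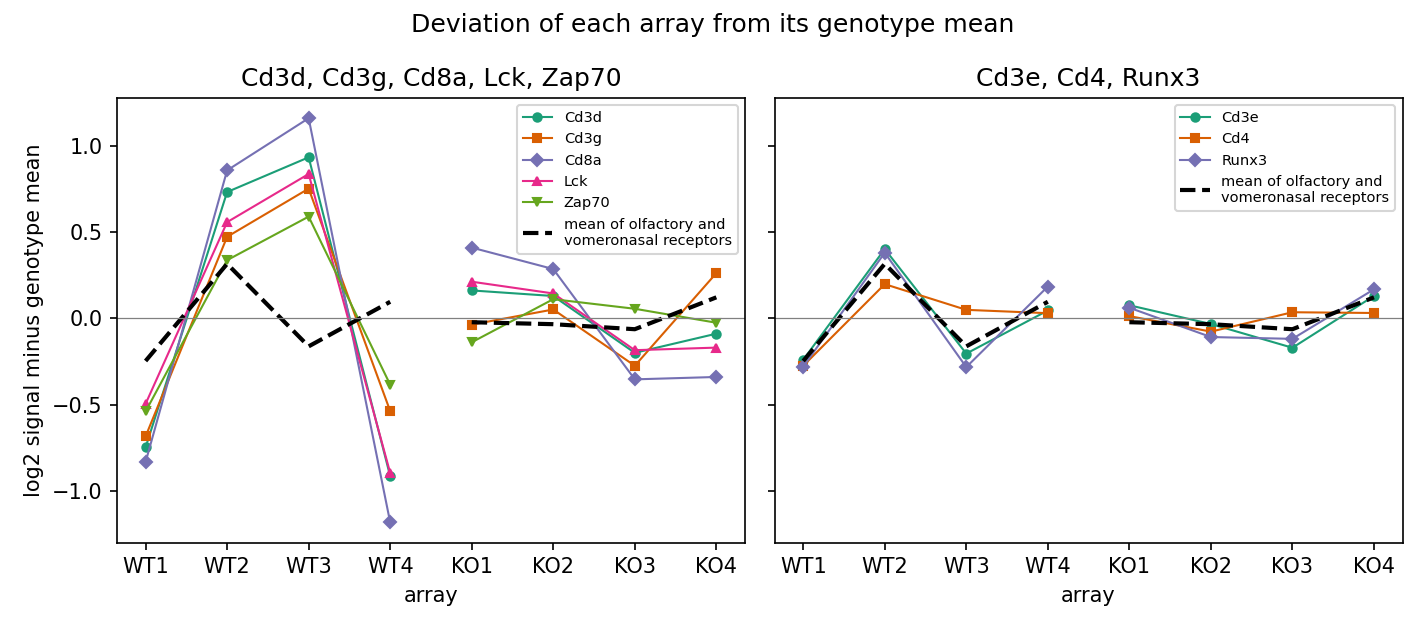
Deviation of each array's log2 signal from its genotype mean (vertical axis) over the 8 arrays (horizontal axis), with Cd3d, Cd3g, Cd8a, Lck and Zap70 on the left and Cd3e, Cd4 and the brighter Runx3 probe on the right; the dashed line is the mean of 207 olfactory and vomeronasal receptor genes. On the left WT replicates 2 and 3 stand above 0 and WT replicates 1 and 4 below it, apart from the dashed line, which Cd3e and Runx3 follow on the right.

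The genes whose deviations were most like the mean of the CD3 chains were Slc35a4, Faap100, Pmm2, Ifng and Ptprcap, each with r = 0.98 over the 8 arrays. Ifng encodes interferon gamma, a cytokine of T and NK cells, and Ptprcap encodes a protein that binds the leukocyte phosphatase CD45. Nearest genes of single members were listed after the values had been seen. Those of Cd3d were Nkg7, Ptprcap, Skap1, Faap100 and Ccl5, those of Cd8a were Cst7, Lck, Il12rb1, Nkg7 and Ccl5, and those of Lck were Cd8a, Skap1, Ccl5, Cst7 and Rasal3. Of these Nkg7 encodes a protein of cytotoxic granules and Ccl5 a chemokine of T and NK cells. Those of Cd3e were Ly6g6d, Scn4a, Sdk2, Ndst3 and Nipal3, and those of the brighter Runx3 probe were Olfr123, Tango6, Olfr1444, C1rl and Nipal3. Scn4a encodes a sodium channel of skeletal muscle, and Olfr123 and Olfr1444 encode odorant receptors.

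Because odorant receptors stood next to Runx3, the whole family of olfactory and vomeronasal receptor genes, which serve smell and have no known part in the gland, was then set beside the T cell genes. Its mean log2 signal over 207 tested genes was 5.45, 6.01, 5.53 and 5.79 in WT and 5.09, 5.08, 5.05 and 5.23 in KO, without overlap. The median difference of these 207 genes was -0.56, and 68 of them were called lower and 2 higher. Of all genes tested 8.96% were called lower and 7.53% higher. A gene that passed the filter through WT alone was favoured to be lower in KO. This median, these counts and the mean of the 207 genes are therefore not those of the whole family. The family mean used below, also as a covariate, is that of the 207 genes. The 137 probes of the family that were well above background on all 8 arrays had a median difference of -0.46. Of these, 39 were called lower and 2 higher, beside 7.17% of all probes tested called lower. Over all 1070 probes of the family, bright or dim, the mean level was 2.94 in WT and 2.66 in KO, a difference of -0.28. The deviations of the family mean correlated with those of the brighter Runx3 probe at r = 0.97 and of Cd3e at r = 0.95, and with Cd4 at 0.78 and Gzmb at 0.67. For Cd3d, Cd3g, Cd8a, Lck and Zap70 r was between 0.08 and 0.32. Without WT replicates 1 and 2, the arrays farthest from the median of the family mean, r was 0.96 for Runx3 and 0.86 for Cd3e but -0.016 for Cd4 and -0.20 for Gzmb. For Cd3g it was then -0.52, for Cd3d -0.78, for Cd8a and Lck -0.80 and for Zap70 -0.81. The relation thus held its sign without these arrays only for Runx3 and Cd3e among the 9 genes. With the family mean as a covariate, chosen after seeing the data, 0 of the 9 genes were called. Runx3 then differed by 0.13 (SE 0.17) and Cd3e by 0.067 (SE 0.18). That fit left 6 genes called of all genes tested, and the covariate itself did not overlap between the genotypes. The part of this shared fall in the results for Cd3e, Cd4 and Runx3 was not tested.

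Other genes of the T cell receptor and its signal showed no called difference. The list held 20 genes, of which 19 had a matched probe and 13 were tested. None of the 13 was called by limma or by the methods' t-test, and 0 had an unadjusted p under 0.05 by either. Of all 14137 genes tested limma called 16.5%, and 5136 had an unadjusted p under 0.05 by limma and 4765 by the methods' t-test. The median difference was -0.24, beside -0.40 for the 9 genes and -0.02 over all genes tested. The smallest p belonged to Cd5, a brake on receptor signalling, which gave 6.89, 7.96, 8.23 and 6.28 in WT and 7.03, 6.59, 6.21 and 6.21 in KO (difference -0.83, adjusted p = 0.192 by limma). Cd5 was high on WT replicates 2 and 3, as Cd3d was. Next came Il7r, the receptor chain for interleukin 7, at 0.66 (adjusted p = 0.205 by limma), Cd6, a relative of Cd5, at -0.55 (adjusted p = 0.261 by limma) and the adaptor gene Lat at -0.53 (adjusted p = 0.266 by limma). Cd40lg, Ctla4, Themis and Ubash3a were not well above background on any array.

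Among regulators of the CD4 and CD8 fates other than Runx3, 5 of 15 tested genes were called higher in KO and 0 lower, with a median of 0.38. Of all genes tested 7.53% were called higher and 8.96% lower, with a median of -0.02. At an unadjusted p under 0.05, limma took 9 of the 15 as higher and 0 as lower, beside 2359 higher and 2777 lower of all 14137 genes tested. Patz1 encodes MAZR, a zinc finger factor known to repress Zbtb7b in cells of the CD8 lineage, and it was called in all 16 alternatives that were planned. It gave 6.01, 5.34, 5.80 and 5.31 in WT and 6.86, 7.16, 7.17 and 7.19 in KO (difference 1.48, SE 0.18, adjusted p = 0.00462 by limma). With normexp its difference was 0.86, and with the olfactory receptor mean as a covariate it was 0.85 and was not called (adjusted p = 0.464 by limma). Every KO array thus stood above every WT array.

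Satb1, a chromatin organizer that acts on Zbtb7b and Runx3 in thymocytes, gave 8.76, 8.48, 8.82 and 8.90 in WT and 9.19, 9.33, 9.32 and 9.40 in KO (difference 0.57, SE 0.12, adjusted p = 0.0200 by limma). Runx2, a relative of Runx3 that is best known from bone, gave 5.59, 4.96, 5.73 and 4.86 in WT and 6.29, 6.21, 6.39 and 5.77 in KO (difference 0.88, SE 0.23, adjusted p = 0.0370 by limma). Zbtb7a, a close relative of Zbtb7b, was also called, at 0.32 (adjusted p = 0.0461 by limma), and was named after its value was seen. With the replicate number as a block its call was lost (adjusted p = 0.0757 by limma). On every KO array Satb1, Runx2 and Zbtb7a were above every WT array. Satb1 was called in 14 of the 16 alternatives, Runx2 in 7 and Zbtb7a in 6. On the probes that stood for the genes, Runx3 was thus lower in KO and Runx2 higher. With the mean of a gene's probes the signs were kept, but neither was called (adjusted p = 0.0629 for Runx3 and 0.129 for Runx2 by limma). With the olfactory receptor mean as a covariate both signs turned (0.13, SE 0.17, for Runx3 and -0.080, SE 0.28, for Runx2). Both values were smaller in size than their SE, so they were not distinguished from no difference. Many genes of this list are also expressed in epithelial or stromal cells, so they do not report on T cells alone. Patz1 and Runx2 had deviations that ran against those of the olfactory receptor mean (r = -0.77 and -0.86).

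Of 11 tested cytotoxic effectors other than Gzmb 1 was called higher and 0 lower, with a median of 0.00. This is near the 7.53% of all genes tested that were called higher. The one called was Ctsw, which encodes cathepsin W, a protease of CD8 and NK cells. It gave 7.67, 8.88, 9.08 and 8.20 in WT and 9.69, 9.84, 9.57 and 9.25 in KO, all KO arrays being above all WT arrays (difference 1.13, SE 0.30, adjusted p = 0.0388 by limma, called in 9 of the 16 alternatives). Within the WT dams Ctsw too was highest on replicates 2 and 3, and over all 8 arrays the deviations of the genes correlated at r = 0.88. Prf1, the pore former perforin, differed by 0.37 (adjusted p = 0.160 by limma), Klrd1, a receptor chain of NK and CD8 cells, by 0.30 (adjusted p = 0.225 by limma) and the chemokine gene Xcl1 by -0.53 (adjusted p = 0.299 by limma).

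Of 5 tested NK cell markers 2 were called higher and 0 lower, beside the same 7.53% and 8.96% of all genes. Klra7, which encodes a Ly49 receptor, gave 7.10, 7.38, 7.46 and 7.01 in WT and 7.58, 7.80, 7.85 and 7.73 in KO (difference 0.50, adjusted p = 0.0366 by limma). Its value is uncertain, since the Ly49 receptor genes are similar in sequence and a probe may bind several of them. Ncr1, the NK receptor NKp46, gave 3.70, 3.93, 4.53 and 3.72 in WT and 4.67, 4.53, 4.77 and 4.81 in KO, touching at the top of WT (difference 0.72, adjusted p = 0.0367 by limma). Ncr1 was well above background on 6 of the 8 arrays and passed the filter through KO alone. Its higher value in KO was therefore favoured by the filter. With the normexp background correction Ncr1 was at an adjusted p of 0.353 by limma. Klra7 and Ncr1 were each called in 6 of the 16 alternatives, and Klre1 (0.41) and Klrb1c (0.14) were not called. Of the 5 tested genes 4 were higher in KO on average and 1 was lower, Il2rb at -0.11. Klrg1 was well above background on 5 arrays and did not enter the test. It gave 5.69, 4.73, 5.15 and 3.68 in WT and 4.08, 4.17, 3.32 and 3.63 in KO. Klrc1 was not well above background on any array.

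**Figure D4:**
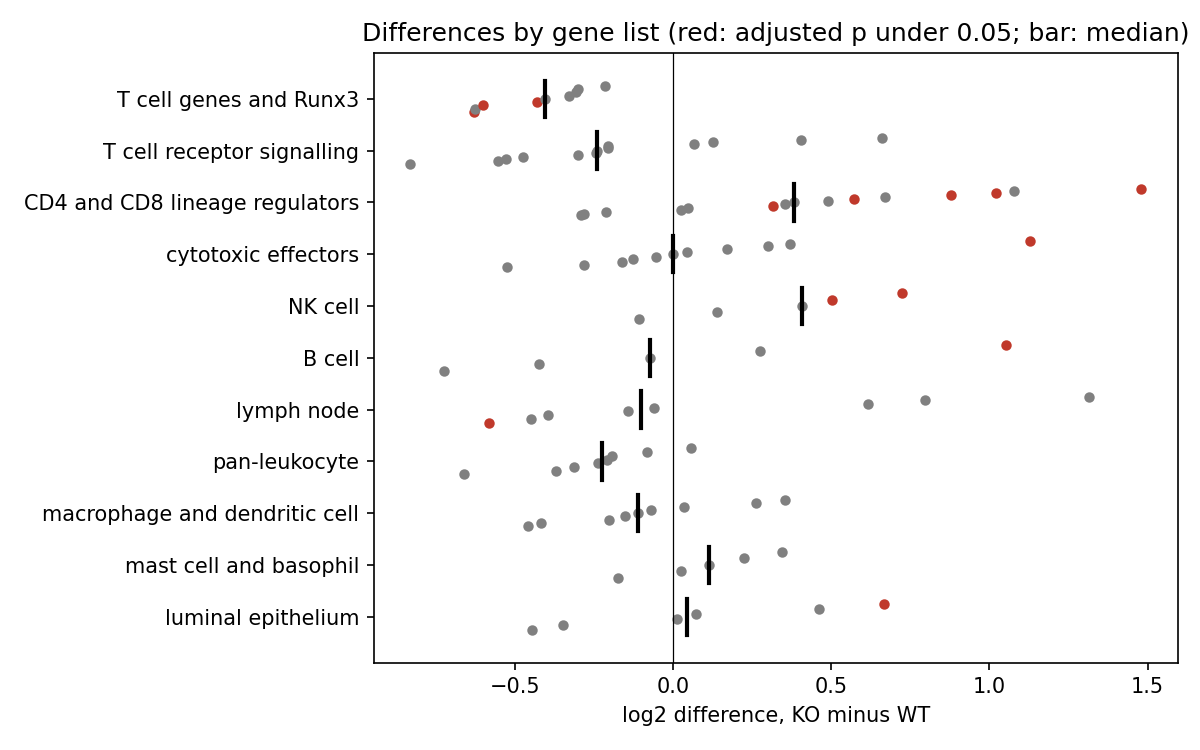
Difference in log2 signal, KO minus WT, of each tested gene (points) in the 9 T cell genes and in 10 companion lists, with the median of each list as a bar; red marks an adjusted p under 0.05 from limma. The T cell genes lie left of 0 with a median of -0.40, and the lineage regulators lie mostly right of it with a median of 0.38.

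The other cells that the gland could hold were read from lists of their markers. A No. 4 gland carries a lymph node, which is rich in T and B cells, and whether it was removed is not given in the sources used here. The mean level of the 8 tested lymph node genes ranged from 6.87 to 7.15 in WT and from 6.70 to 7.62 in KO. Ccl21a, a chemokine of the lymph node stroma, was spread widely in WT, at 8.25, 5.41, 8.64 and 10.71, and gave 10.24, 9.32, 9.42 and 9.28 in KO (difference 1.31, SE 0.94, adjusted p = 0.341 by limma). Its pattern over the WT dams differed from that of Cd3d, since WT replicate 2 was lowest and WT replicate 4 highest. Chst4, a sulfotransferase of high endothelial venules, was called lower at -0.58 (adjusted p = 0.0282 by limma), and its deviations correlated with the olfactory receptor mean at r = 0.88. Cxcl13 (0.80) and Madcam1 (-0.40) were not called.

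B cell markers did not follow one direction. Cd79b gave 8.002, 8.22, 8.56 and 7.29 in WT and 8.85, 9.11, 8.75 and 9.58 in KO and was called higher (difference 1.05, adjusted p = 0.0403 by limma, called in 6 of the 16 alternatives). This call was lost under the replicate block (adjusted p = 0.0744 by limma). Cd79a, its partner in the B cell receptor, differed by -0.72 (adjusted p = 0.0511 by limma). It was well above background on 5 of the 8 arrays and passed the filter through WT alone, so its fall was favoured by the filter. Of the 5 tested B cell genes 2 were higher in KO on average and 3 were lower. Ms4a1, which encodes CD20, differed by 0.28 and was not called. Over the 5 tested B cell genes the mean level overlapped, from 5.74 to 6.25 in WT and from 5.80 to 6.29 in KO. Pax5 and Blk were not well above background on any array.

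The 8 markers shared by all leukocytes had a mean level of 9.01 to 9.60 in WT and 8.77 to 9.40 in KO, and 0 of 8 were called by limma (1 at an unadjusted p under 0.05, by limma and by the methods' t-test). For this list and those below, limma called 16.5% of all 14137 genes tested. At an unadjusted p under 0.05 limma took 5136 of all genes and the methods' t-test 4765. Rac2, a small GTPase of blood cells, was nearest to the threshold at -0.66 (adjusted p = 0.0622 by limma), and Ptprc, which encodes CD45, differed by -0.21 (adjusted p = 0.435 by limma). Ptprc, Cd52 and Itgal were highest on WT replicates 2 and 3 among the WT dams, the arrays on which Cd3d was high. In macrophage and dendritic cell genes 0 of 9 were called by limma (2 at an unadjusted p under 0.05, and 1 by the methods' t-test), with Flt3 at -0.46 and Zbtb46 at -0.42, and Mrc1 at 0.26 and Cd163 at 0.35. In mast cell and basophil genes 0 of 5 were called by limma and 0 had an unadjusted p under 0.05 by either test; Cpa3 differed by 0.34, Fcer1a by -0.17, Tpsb2 by 0.23 and Cma1 by 0.11. Luminal epithelial genes were bright on all arrays, with a mean level of 16.54 to 16.69 in WT and 16.59 to 16.73 in KO. Of these Krt18, a keratin of luminal cells, was called higher at 0.67 (adjusted p = 0.0349 by limma), and Krt8 (0.46), Elf5 (-0.35) and Lalba (-0.45) were not called. Krt18 was called in 7 of the 16 alternatives, and its call was lost with the authors' table (adjusted p = 0.0619 by limma). Its deviations ran against those of the olfactory receptor mean (r = -0.91). The part of these cell types in the values of the T cell genes was not tested.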

How the data were processed

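Genotype and replicate number came from the sample labels. The authors deposited scanner output of Agilent Feature Extraction 10.7, whose processed intensity is background-subtracted within each array, and a table of log2 values that had been quantile-normalized in GeneSpring. The table was an alternative here. It does not state its scale, but each column correlated with the log2 intensity of its array at r of at least 0.9985 and had a median of 6.33.

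Without control spots, the processed intensity was log2-transformed and quantile-normalized, outlier spots (64 to 100 per array) were then dropped, and averaging by probe gave 41174 probes (limma 3.58.1, R 4.3.3). Symbols came from the probe accessions through the RefSeq table of GRCm38.p6 (27479 probes, 18749 symbols). Of the 27094 probes with an NM accession, 26728 matched. The array design names build mm9, so only the RefSeq promoter windows have coordinates here. A probe had to be well above background on each of the 4 arrays of either genotype. The brightest such probe stood for a gene, and limma was fitted with genotype alone after a check on simulated data. The number of arrays limits the precision, and p-values measure the spread between these dams.

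Members and lists were chosen with earlier results of these data known. Named genes are the members and all their probes, Zbtb7b, the 4 genes of smallest p in each other list, the 5 most like the CD3 mean, and list genes called and changed by 2-fold. Some genes that this rule names are not reported here. Genes not well above background, Il2rb, Klrg1, the nearest genes of single members, the olfactory receptor family and the groups of genes that correlate were named after values were seen. Replicate numbers were used only as a block in an alternative, and the sample labels do not say whether same-numbered dams were a pair. Deviations of same-numbered WT and KO arrays correlated at r = 0.22, 0.16, 0.30 and 0.28. Correlations between arrays of different numbers are not reported here, so these values do not decide whether the numbers pair the dams. Alternatives were scaling by the 75th percentile, normexp (offset 50) on the median signal and background in place of the mean signal that had been planned, no filter on dim probes, the mean of a gene's probes, the replicate block, the authors' table, the methods' t-test, outlier spots kept, and each array left out.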

Additional observations from a re-analysis of the deposited data

Results flagged for a closer look

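In 6 of 118 groups of 4 arrays, 1 array lay far from the others, where chance alone marks about 1 in 20 groups. None of these groups belongs to the 9 T cell genes, their other probes or the olfactory receptor mean. Patz1 gave 6.86 on KO replicate 1 and between 7.16 and 7.19 on the other KO arrays. Ccl21a gave 10.24 on KO replicate 1, above 9.28 to 9.42 on the others. Chst4 gave 5.43 on KO replicate 2, below 5.63 to 5.65 on the others. On KO replicate 4, Krt18 gave 16.58 beside 16.99 to 17.02, and Mrc1 gave 9.61 beside 10.03 to 10.11. Zbtb46 gave 6.08 on WT replicate 2 beside 5.52 to 5.58.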

How the results depend on the processing

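The count of T cell genes called was 3 with scaling by the 75th percentile, with the authors' table and with outlier spots kept, and 2 with normexp, with the mean of a gene's probes and with the replicate block. It was 0 with at least 2-fold required, 0 without the filter on dim probes (1766 of all genes called), 0 by the methods' t-test (1389 of all genes, against 2331 by limma) and 0 with the olfactory receptor mean as a covariate (6 of all genes). Left out in turn, arrays gave 0 to 4 of the T cell genes and 519 to 3076 of all genes: 0 without WT replicate 2, 3 or 4 or KO replicate 1, 2 or 3, 2 without KO replicate 4, and 4 without WT replicate 1, when Gzmb joined. Over the 16 alternatives the adjusted p from limma or, in 1 of them, the t-test ranged from 0.0281 to 0.101 for Cd3e (called in 8), 0.0164 to 0.178 for Cd4 (called in 5), 0.0288 to 0.107 for Runx3 (called in 7) and 0.0117 to 0.306 for Gzmb (called in 1). The other T cell genes were called in none of them. The replicate block ended the calls of Cd4, Cd79b (adjusted p = 0.0744) and Zbtb7a (adjusted p = 0.0757) among the genes named, and of all genes it called 2762.

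Directions turned for Cd8a without WT replicate 2 (0.071) or WT replicate 3 (0.17) and on its probe A_52_P443334 (0.094). With the covariate, which was chosen after seeing the data, they turned for Cd3d (0.13, SE 0.88), Cd3e (0.067, SE 0.18), Cd3g (0.21, SE 0.66) and Cd8a (0.15, SE 1.13). They also turned for Runx3 (0.13, SE 0.17), Gzmb (0.27, SE 0.44), Krt18 (-0.042, SE 0.20) and Runx2 (-0.080, SE 0.28). Each value with the covariate was smaller in size than its SE and so was not distinguished from no difference. The median of the olfactory receptor genes was -0.61 with scaling by the 75th percentile and -0.19 with normexp. The median of the luminal epithelial genes was 0.04, and -0.12 with scaling by the 75th percentile. The cause of these changes was not tested.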
